A study of Mus musculus with 4 samples.

Results

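The genes that make, lengthen, desaturate and activate fatty acids were followed in primary mouse oligodendrocytes with and without the long noncoding RNA lncOL1. The set was chosen by name and holds 36 genes, all of which were found under their symbols among the 23435 gene symbols used from the deposited tables. RNA was taken from precursor cells differentiated in culture for 1 day with T3, the thyroid hormone that starts oligodendrocyte differentiation in a dish. The 2 control samples (Ctrl) have the genotypes lncOL1+/+ and lncOL1+/- on 1 shared label, so that the genotype of each is unknown. The 2 knockout samples (lncOL1KO) are lncOL1-/-. The strain of every sample is given as a mixed background. The age of the animals, the part of the locus that was removed and whether each sample came from an animal or culture of its own are not stated in the labels. The p-values therefore measure the spread between these 4 samples only, and that spread may be technical.

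Myelin is unusually rich in lipid, and an oligodendrocyte builds large amounts of saturated, monounsaturated and very long-chain fatty acids when it starts to wrap axons. Citrate leaves the mitochondrion and is cleaved to acetyl-CoA in the cytosol, acetyl-CoA carboxylase turns this into malonyl-CoA, and fatty acid synthase joins the units to palmitate. Palmitate is then tied to coenzyme A, after which it can be lengthened and desaturated at the endoplasmic reticulum, enter membrane lipids or be burned. Many genes of these steps are known targets of SREBP transcription factors.

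Levels are in FPKM, fragments scaled to transcript length and to all mapped fragments, so that levels of different genes can be set beside each other per length. Read counts were not part of the tables used, the depth behind a value is unknown, and precision rests on 2 libraries per group. Low values put the relative depth of the other libraries at 0.94 to 1.19 of control replicate 1. lncOL1 itself (9630013A20Rik) was at 28.9 and 34.0 FPKM in control against 5.54 and 5.06 in knockout (log2 fold change -2.36, limma adjusted p = 0.000389), which is the direction the labels give. All 15 oligodendrocyte lineage markers looked at were above 1 FPKM on average, with summed levels of 9680 and 9943 FPKM in control against 8946 and 9184 in knockout. By limma 0 of the 15 were called, while 4 were lower and 2 higher by unadjusted p. Of all tested genes, 6.58% were lower and 7.13% higher at an unadjusted p under 0.05. The authors' deposited table calls Mag, Cldn11, Myrf and Enpp6 lower and Nkx2-2 higher, where it calls 4.04% and 1.74% of its own tested genes. Astrocyte markers were also present, at sums of 705 and 690 FPKM in control against 674 and 658 in knockout. Of 15 microglia markers, 7 passed the filter and 3 of these rose, and the list summed to 14 and 14.6 FPKM in control against 29.4 and 34.5 in knockout. Of all tested genes 0.528% were called higher. In all 7 both knockout libraries lay above both controls, against 22.6% of all tested genes. By unadjusted p 6 were higher, against 7.13%. Of 11 microglia markers tested in the authors' deposited table, 5 are called higher and 0 lower, where it calls 1.74% and 4.04% of its own tested genes. A low marker can pass a filter on the mean of all libraries through the group where it is higher. Proliferation markers summed to 133.6 and 138.2 FPKM in control against 108.4 and 102.6 in knockout, with 2 of 12 called lower. Of all tested genes 0.783% were called lower. The log2 fold change was under 0 in all 12, and 10 were lower by unadjusted p, against 6.58% of all tested genes. The authors' deposited table calls 7 of them lower, against 4.04% of its own tested genes. Oligodendrocyte precursor markers summed to 745.3 and 756.9 FPKM in control against 807.1 and 820.2 in knockout, with 0 of 8 called by limma (2 higher by unadjusted p). Of 10 fibroblast and mural cell markers 1 passed the filter, Acta2, and it rose (log2 fold change 0.80, limma adjusted p = 0.0488). Of all tested genes 0.528% were called higher. The list summed to 3.08 and 3.62 FPKM in control against 4.53 and 4.07 in knockout. Below the filter, the authors' pooled values were lower in knockout for Col1a1, Col1a2, Col3a1, Dcn, Lum, Pdgfrb and Vtn, and higher for Rgs5. Neuron markers summed to 41.7 to 45.1 FPKM and ependymal markers to 4.40 to 6.36, with 0 called by limma (1 higher in each by unadjusted p). The 6 endothelial markers summed to under 1 FPKM in every library. The part of these other cells and of cycling cells in the results was not tested, and in bulk RNA fewer cells of a type and less RNA per cell cannot be told apart.

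A gene was tested where its mean over the 4 libraries was at least 1 FPKM, and was called where limma gave a p under 0.05 after Benjamini-Hochberg adjustment over all 11361 genes tested. Of the 36 members 32 were tested and 1 was called: Acsl1, the acyl-CoA synthetase best known from fat and muscle, fell. By limma 0 members were called higher. Calls made up 1.31% of all tested genes, 0.528% higher and 0.783% lower, beside 1 of 32 members (3.12%) lower. At an unadjusted p under 0.05, 7 members were higher (21.9%, against 7.13% of all tested genes) and 3 were lower (9.38%, against 6.58%). Both knockout libraries were above both control libraries in 13 members and below them in 7, and in 12 the groups overlapped. The log2 fold change was above 0 in 18 members, against 51.4% of all tested genes. Among all tested genes 22.6% lay fully above and 20.7% fully below. The median log2 fold change of the members was 0.012 and that of all tested genes 0.0047. The authors' deposited table, which compares the groups with Cuffdiff, calls 4 members higher and 2 lower, where it calls 1.74% and 4.04% of its own tested genes. These are Acss2, Elovl6, Acsl3 and Acsl5, all higher, and Elovl7 and Acsl1, both lower.

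**Figure D1:**
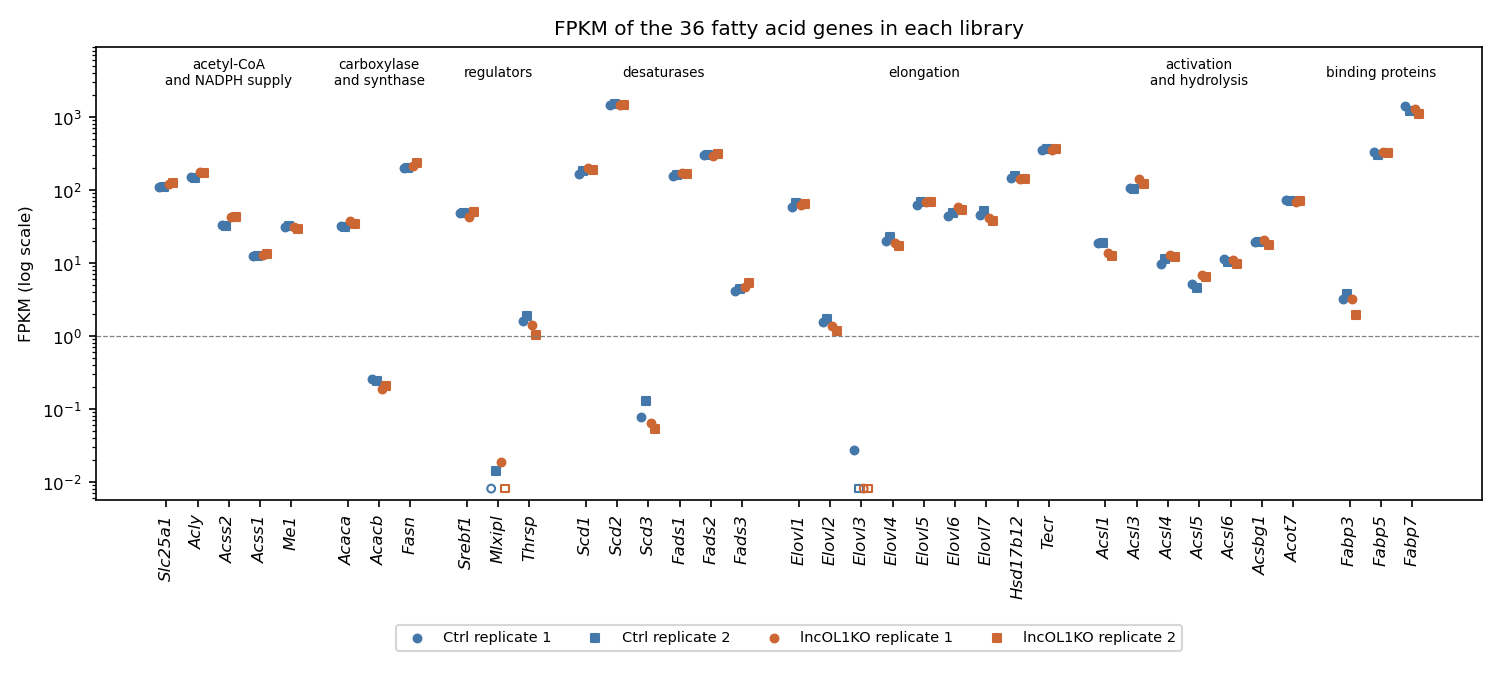
FPKM of each of the 36 genes on a log axis, grouped by role, with 1 point per library (blue for Ctrl, orange for lncOL1KO, circles for replicate 1 and squares for replicate 2); open symbols at the lower edge stand for values of 0 and the dashed line marks 1 FPKM. Scd2 and Fabp7 lie highest in every library, while Acacb, Scd3, Elovl3 and Mlxipl lie under 1 in every library.

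The activating enzymes lay on both sides of 0, with 1 of 7 called lower and 0 called higher by limma (at an unadjusted p under 0.05, 3 were higher and 1 lower). By unadjusted p these are 42.9% and 14.3%, against 7.13% and 6.58% of all tested genes. Long-chain acyl-CoA synthetases tie free fatty acids to coenzyme A, and the mouse genes differ in tissue and in the chain they prefer. Acsl1 (chromosome 8, 46471042 to 46536050 in the files, mm10) was at 18.7 and 18.3 FPKM in control against 13.6 and 12.2 in knockout. Every knockout value lay below every control value, with a mean 30.3% lower. The log2 fold change was -0.49 (SE 0.078, 95% confidence interval -0.68 to -0.30, limma adjusted p = 0.0439). The call was lost without each library in turn: leaving out control replicate 1 gave an adjusted p of 0.254, control replicate 2 gave 0.244, knockout replicate 1 gave 0.150 and knockout replicate 2 gave 0.294, at log2 fold changes of -0.57 to -0.42. It was also lost with no filter on low genes (adjusted p = 0.129) and with a prior spread that ignores expression level (0.0626). The authors' deposited table gives a log2 fold change of -0.56 with q = 9.91e-09.

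Acsl3, an enzyme of the endoplasmic reticulum and of lipid droplets, is the main synthetase transcript here. It had 103.7 and 102.1 FPKM in control against 137.6 and 121.1 in knockout, so that the groups did not overlap. Its log2 fold change of 0.32 did not pass (95% confidence interval 0.13 to 0.52, limma adjusted p = 0.145), while the authors' deposited table gives 0.33 with q = 0.00145. Acsl5, a less abundant relative, had 5.03 and 4.46 FPKM in control against 6.79 and 6.32 in knockout. Its log2 fold change was 0.40 (limma adjusted p = 0.101), whereas the authors' deposited table gives q = 0.0131. Acsl4, which prefers arachidonate and related polyunsaturated fatty acids, had 9.71 and 11.2 FPKM in control against 12.7 and 11.8 in knockout (log2 fold change 0.22, limma adjusted p = 0.356). Acsl6, a brain isoform that favours docosahexaenoate, and Acsbg1, the bubblegum synthetase, showed overlapping groups, at 9.68 to 11.1 and 17.4 to 20.3 FPKM over the 4 libraries. Their log2 fold changes were -0.04 (95% confidence interval -0.25 to 0.16) and -0.02 (-0.23 to 0.19).

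Shares of the family lay apart by group for Acsl1, Acsl3, Acsl5, Acsl6 and Acsbg1 and overlapped for Acsl4. By FPKM itself the groups of Acsl6 and Acsbg1 overlapped, and a share also depends on the family sum. How often such shares lie apart in other families was not tested. Of the summed FPKM of these 6 synthetases, Acsl1 made up 11.2% and 11.1% in control against 6.73% and 6.82% in knockout. The share of Acsl3 was 61.9% and 61.8% in control and 68.2% and 67.9% in knockout. Acsl4 took 5.8% and 6.77% in control and 6.31% and 6.62% in knockout. The family sum was 167.5 and 165.1 FPKM in control against 201.9 and 178.5 in knockout. These shares come from the same values as the fold changes and were given no test. Acot7, a brain acyl-CoA thioesterase that undoes activation, was level, at 72.0 and 68.9 FPKM in control against 68.1 and 70.2 in knockout (95% confidence interval of the log2 fold change -0.19 to 0.14).

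**Figure D2:**
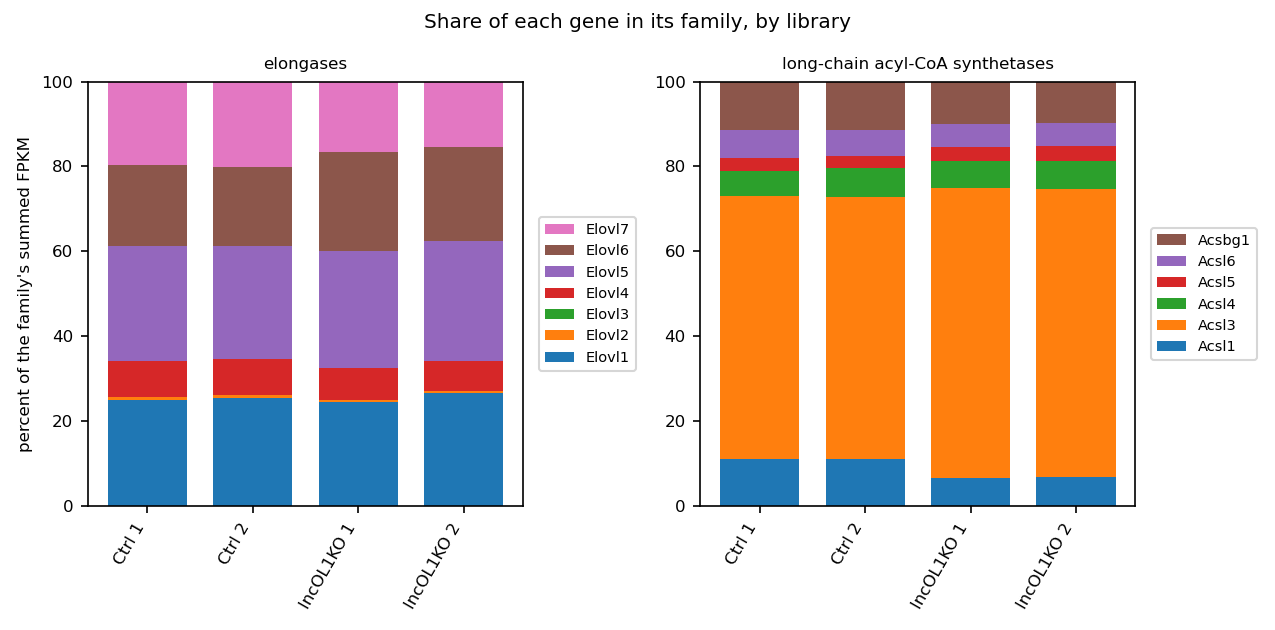
Share of each gene in the summed FPKM of its family, in percent, with 1 stacked bar per library, for the 7 elongases (left) and the 6 long-chain acyl-CoA synthetases (right). Acsl1 (lowest segment, right) takes 11.1% and 11.2% of its family in the Ctrl libraries and 6.73% and 6.82% in the lncOL1KO libraries.

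The stretches of DNA before the start sites of Acsl1, Acsl3 and Acss2 are shown because these are the called member, its abundant relative with a change of the opposite sign, and the member nearest to a call in the other direction. They are from RefSeq (GRCm38.p6, plus strand, written from the far end toward the start site), and capitals mark CCAAT boxes (CCAAT or ATTGG) and the core of the sterol regulatory element (TCACNCCAC or its complement), the site known to bind SREBP proteins. Acsl1 has an outer start and an inner start that lies within the gene, and gene-level FPKM does not tell transcripts of the starts apart. The window of Acss2 is cut to end before the first start annotated by GENCODE.
Acsl1 outer start, chr8:46470787-46471036: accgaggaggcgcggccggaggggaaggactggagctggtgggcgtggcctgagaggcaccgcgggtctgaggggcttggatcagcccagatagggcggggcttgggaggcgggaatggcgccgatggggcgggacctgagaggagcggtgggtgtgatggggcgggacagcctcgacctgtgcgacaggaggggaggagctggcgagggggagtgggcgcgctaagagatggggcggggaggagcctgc
Acsl1 inner start, chr8:46490716-46490965: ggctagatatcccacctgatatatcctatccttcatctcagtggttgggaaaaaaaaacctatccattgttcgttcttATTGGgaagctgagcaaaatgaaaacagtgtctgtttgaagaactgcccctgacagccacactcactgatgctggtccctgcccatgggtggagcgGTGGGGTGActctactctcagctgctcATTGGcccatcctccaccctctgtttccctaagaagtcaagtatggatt
Acsl3, chr1:78657575-78657824: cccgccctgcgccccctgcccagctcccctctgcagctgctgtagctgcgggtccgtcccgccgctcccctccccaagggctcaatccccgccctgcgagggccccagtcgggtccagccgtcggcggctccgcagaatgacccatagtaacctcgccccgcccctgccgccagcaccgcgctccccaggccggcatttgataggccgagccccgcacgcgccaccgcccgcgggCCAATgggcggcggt
Acss2, chr2:155517793-155517947: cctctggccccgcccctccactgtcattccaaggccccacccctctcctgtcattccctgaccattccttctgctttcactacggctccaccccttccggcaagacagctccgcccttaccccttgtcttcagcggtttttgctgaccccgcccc

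In these windows the sterol element core occurs once, before the inner start of Acsl1, on the minus strand, at position -76 from the start. CCAAT boxes occur at 2 places before the inner start of Acsl1 and once before Acsl3. In Acss2 a CCAAT box lies at position -73, in the part not printed. Windows of 250 bases before a start were found for 31 of the 36 members, 40 windows in all. The sterol element core was in 2 of these 40 (Acsl1 and Mlxipl), against 1.05% of 32851 windows of all genes. A CCAAT box was in 21 of 40, against 33.8% of all windows, a CACGTG E-box in 3 of 40 (Elovl5, Mlxipl and Slc25a1), against 6.02%, and a TATAAA box in 1 of 40 (Acacb), against 12.4%. The direct repeat bound by thyroid hormone receptors (AGGTCA, 4 bases of any kind, AGGTCA) was in 0 of 40 and in 5 of the 32851 windows. Both strands were searched. These are matches of letters in short windows and show no binding.

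Of the 5 genes that supply acetyl-CoA and NADPH, 0 passed limma after adjustment (2 higher and 0 lower by unadjusted p). The 2 higher are 40%, against 7.13% of all tested genes. Acss2 (chromosome 2, 155518043 to 155562743), which makes acetyl-CoA from acetate in the cytosol and nucleus, stood closest to a call. It had 32.3 and 31.3 FPKM in control against 42.2 and 41.9 in knockout, values that do not overlap and differ by 32.3% in the mean. Its log2 fold change was 0.39 (SE 0.067, 95% confidence interval 0.23 to 0.55, limma adjusted p = 0.0536), and the authors' deposited table gives 0.34 with q = 0.000239. Of the 13 alternative settings run, 7 put it past the threshold (adjusted p 0.0158 to 0.0485). The 4 that leave out a library did not (0.224 to 0.294), nor did lifting the filter (0.103) or a prior that ignores expression level (0.0744).

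Acly, ATP citrate lyase, had 148.4 and 142.1 FPKM in control against 171.7 and 171.3 in knockout (log2 fold change 0.24, limma adjusted p = 0.184). Slc25a1, the mitochondrial citrate carrier that feeds it, had 109.3 and 108.5 FPKM in control against 120.2 and 121.5 in knockout (log2 fold change 0.15, limma adjusted p = 0.388). In both genes the groups were apart and the replicates close. Acss1, the mitochondrial counterpart of Acss2, was at 12.4 and 12.1 FPKM in control against 12.7 and 13.1 in knockout (log2 fold change 0.07, 95% confidence interval -0.09 to 0.24). Me1, the cytosolic malic enzyme, makes NADPH and is a classical thyroid hormone target in liver. It had overlapping values of 29.2 to 31.5 FPKM (95% confidence interval of the log2 fold change -0.22 to 0.11). Both knockout libraries lay above both controls in 4 of the 5 genes (80%), against 22.6% of all tested genes. Acss2 is called higher in the authors' deposited table.

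Acetyl-CoA carboxylase and fatty acid synthase form the committed part of the pathway. Acaca, the cytosolic carboxylase, had 31.3 and 30.4 FPKM in control against 37.2 and 33.5 in knockout (log2 fold change 0.19, limma adjusted p = 0.356). Fasn had 199.2 and 196.4 FPKM in control against 213.1 and 228.9 in knockout (log2 fold change 0.16, limma adjusted p = 0.403), whereas the authors' deposited table gives 0.07 with q = 0.816. Neither pair of groups overlapped, and neither difference passed. Acacb, the mitochondrial-membrane carboxylase whose malonyl-CoA restrains fatty acid burning, was at 0.187 to 0.256 FPKM in every library and was not tested. Its level lay far under that of Acaca.

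Of the regulators, Srebf1, which encodes the SREBP-1 factors, had overlapping values of 47.8 and 47.2 FPKM in control against 41.9 and 50.1 in knockout. Its log2 fold change was -0.05 (95% confidence interval -0.28 to 0.18) and turned to 0.08 without knockout replicate 1. Thrsp, or Spot 14, a thyroid hormone response gene of lipid-making tissues, was low, at 1.58 and 1.84 FPKM in control against 1.40 and 1.03 in knockout (log2 fold change -0.29, limma adjusted p = 0.370). Mlxipl, which encodes the glucose-sensing factor ChREBP, was at 0 to 0.0185 FPKM and was not tested.

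The desaturases ran from the most abundant member to one under 1 FPKM. In 3 of the 5 tested both knockout libraries lay above both controls, as against 22.6% of all tested genes. Stearoyl-CoA desaturases make oleate from stearate, and Scd2 is the main brain form. Scd2 had 1437 and 1477 FPKM in control against 1458 and 1436 in knockout, the highest mean of all 36 genes. The groups overlapped, with a log2 fold change of -0.01 (95% confidence interval -0.17 to 0.15). Scd1 had 164.9 and 179.4 FPKM in control against 198.2 and 184.6 in knockout (log2 fold change 0.15, limma adjusted p = 0.471). It made up 10.3% and 10.8% of the summed Scd signal in control and 12% and 11.4% in knockout. Scd3, a skin gene, was at 0.0524 to 0.126 FPKM and was not tested. Its low value is uncertain, as the authors' deposited table lists 0.792 FPKM in control and 0.825 in knockout. Whether reads are shared among these near copies was not tested. Fads1 and Fads2, which make the delta-5 and delta-6 double bonds of polyunsaturated fatty acids, were at 153.8 to 171.4 and 289.0 to 303.0 FPKM. The log2 fold change was 0.11 for Fads1 (limma adjusted p = 0.577) and 0.0094 for Fads2 (0.976). Fads3, a relative that acts on sphingoid bases, had 4.06 and 4.34 FPKM in control against 4.65 and 5.20 in knockout (log2 fold change 0.19, limma adjusted p = 0.413). Of 5 desaturase genes tested 0 passed limma, with 0 at an unadjusted p under 0.05, and the authors' deposited table calls 0 of them.

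The elongases, which set chain length by adding malonyl units, had members on both sides of 0. Elovl6, which takes palmitate to stearate, had 44.0 and 48.2 FPKM in control against 57.9 and 52.4 in knockout. Elovl7 (chromosome 13, 108214404 to 108287107), which lengthens saturated and polyunsaturated long chains, had 44.9 and 51.5 FPKM in control against 40.8 and 36.7 in knockout. The libraries were apart by group in both genes, higher for Elovl6 and lower for Elovl7. Their log2 fold changes were 0.25 (95% confidence interval 0.05 to 0.45, limma adjusted p = 0.249) and -0.31 (-0.53 to -0.08, limma adjusted p = 0.215). The authors' deposited table gives 0.26 with q = 0.00213 for Elovl6 and -0.34 with q = 2.79e-05 for Elovl7.

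Elovl4, needed for the very longest chains, had 19.6 and 22.2 FPKM in control against 18.3 and 17.1 in knockout (log2 fold change -0.23, limma adjusted p = 0.309). Elovl1, the main elongase for the saturated very long chains of myelin sphingolipids, had overlapping values of 57.7 to 65.6 FPKM (95% confidence interval of the log2 fold change -0.19 to 0.21). Elovl5, an elongase of polyunsaturated chains, overlapped as well, at 62.2 to 68.3 FPKM (-0.12 to 0.24). Elovl2, known from liver and astrocytes, was at 1.17 to 1.67 FPKM with knockout below control (log2 fold change -0.20, limma adjusted p = 0.485). Elovl3, an elongase of brown fat and skin, was at 0.0267 FPKM in control replicate 1 and listed at 0 in the other libraries. As shares of the summed elongase FPKM, Elovl6 went from 19.1% and 18.7% in control to 23.4% and 22% in knockout, and Elovl7 from 19.5% and 20.0% to 16.5% and 15.4%.

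The enzymes that complete each elongation cycle are shared by all chain lengths. Hsd17b12, the ketoacyl-CoA reductase, had 145.8 and 153.5 FPKM in control against 140.4 and 138.6 in knockout (log2 fold change -0.10, limma adjusted p = 0.610). Tecr, the enoyl-CoA reductase, was at 350.2 to 362.7 FPKM with overlapping groups (log2 fold change 0.014, 95% confidence interval -0.15 to 0.17). Of the 8 elongation genes tested 0 were called by limma, and before adjustment 1 was higher and 2 were lower. These are 12.5% and 25%, against 7.13% and 6.58% of all tested genes.

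Fatty acid binding proteins carry the products through the cytosol. Fabp7, the brain form found in radial glia, astrocytes and oligodendrocyte precursors, had 1381 and 1208 FPKM in control against 1260 and 1080 in knockout, second to Scd2 by mean. Fabp5 had 326.8 and 302.1 FPKM in control against 330.7 and 312.7 in knockout. In both genes the groups overlapped, with log2 fold changes of -0.15 (95% confidence interval -0.40 to 0.10) and 0.03 (-0.15 to 0.21). Fabp3, the heart form, had 3.21 and 3.72 FPKM in control against 3.16 and 1.88 in knockout, a wide spread (log2 fold change -0.36, limma adjusted p = 0.429). Astrocytes also express Fabp7, and of 11 tested astrocyte markers limma called 0, while 3 were lower and 1 was higher by unadjusted p. These are 27.3% and 9.09%, against 6.58% and 7.13% of all tested genes. Of 11 astrocyte markers tested in the authors' deposited table, 4 are called lower (Gfap, Slc1a2, Gja1 and Slc4a4) and 0 higher. That table calls 4.04% of its own tested genes lower and 1.74% higher.

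**Figure D3:**
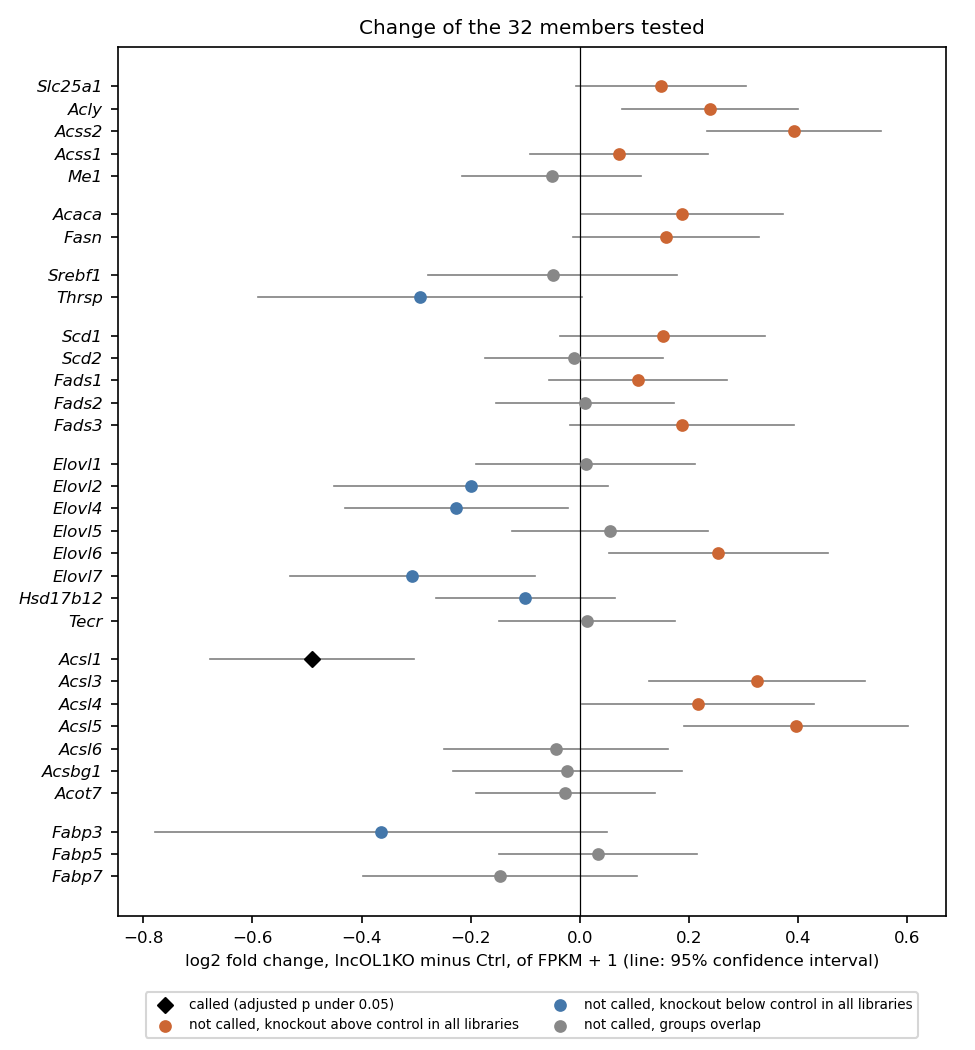
Log2 fold change of FPKM + 1 (lncOL1KO minus Ctrl) for the 32 members tested, in the order of their roles, with 95% confidence intervals from limma. Acsl1 (black diamond) is the called gene at -0.49, while Acss2, Acsl5 and Acsl3 lie at 0.39, 0.40 and 0.32 without passing the adjusted threshold.

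No label states whether counting used strand. Exon positions of 14 members are shared with another gene in GENCODE, 7 of them with a protein-coding gene. Acsl1 shares positions with Gm45244, a gene on the opposite strand for which no level was used here. Acss2 shares positions with Ggt7, Gss and the antisense gene Acss2os, all on the opposite strand. Their log2 fold changes were 0.17, 0.18 and 0.26, none past limma (adjusted p 0.505 to 0.569). Acsl3 overlaps Utp14b on the same strand (0.16, limma adjusted p 0.588) and Acsl5 overlaps Zdhhc6 on the opposite strand (-0.09, 0.648). Fabp3, at a mean of 2.99 FPKM, overlaps the more abundant Zcchc17 (25.3 FPKM) on the opposite strand. Elovl1 overlaps Cdc20, Srebf1 overlaps Rai1 and Elovl3 overlaps Pitx3. Zcchc17, Cdc20 and Rai1 were at -0.02, 0.10 and 0.02 on the log2 scale, none past limma (adjusted p 0.965, 0.703 and 0.937), and Pitx3 was too low to test. How far reads of these pairs mix was not tested.

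Related lists were read with the same fit. Of 13 tested genes of fatty acid uptake, transport and lipolysis, 2 rose and 0 fell by limma (background 0.528% and 0.783%). Among them was Mfsd2a, the carrier of lysophosphatidylcholine with docosahexaenoate, which rose from 31.8 and 35.1 FPKM in control to 52.1 and 53.8 in knockout (log2 fold change 0.65, SE 0.077, limma adjusted p = 0.0151). Dropping any 1 library ended the call of Mfsd2a (adjusted p 0.0668 to 0.183). Dbi, the acyl-CoA binding protein, and Slc27a4, a very long-chain synthetase and transporter, were the most abundant of the list, with log2 fold changes of -0.04 and -0.10. The authors' deposited table calls 2 genes of this list higher and 1 lower, the latter Slc27a4 (-0.22, q = 0.0231). Of its own tested genes it calls 1.74% higher and 4.04% lower.

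The other 8 lists held 0 calls by limma. Of 21 tested SREBP and nuclear receptor genes, 1 was higher by unadjusted p (4.76%, against 7.13% of all tested genes) and 0 were lower. That gene, Insig1, which retains SREBPs in the endoplasmic reticulum and is itself a target, had 84.9 and 94.8 FPKM in control against 113.5 and 112.3 in knockout (log2 fold change 0.33, limma adjusted p = 0.127). In the authors' deposited table its q is 0.00332. Srebf2 and Mid1ip1, the partner of Thrsp, were at 0.07 and 0.22 on the same scale (limma adjusted p 0.762 and 0.395).

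Of 12 NADPH supply genes, 3 lower ones (25%, against 6.58% of all tested genes) and 0 higher ones had an unadjusted p under 0.05. These were Me2, Taldo1 and Idh1, at -0.26, -0.24 and -0.24 on the log2 scale (limma adjusted p 0.174, 0.253 and 0.265). The authors' deposited table calls these 3 lower, where it calls 4.04% of its own tested genes lower. Of 23 genes of mitochondrial oxidation 1 was higher and 1 lower at that level (4.35% each, against 7.13% and 6.58% of all tested genes). These were the brain carnitine palmitoyltransferase Cpt1c (log2 fold change 0.28, limma adjusted p = 0.136) and Cpt2, which releases acyl groups inside the mitochondrion (-0.20, adjusted p = 0.262). Hadha and Hadhb, the trifunctional protein, were at -0.10 and -0.11. Of 15 peroxisomal genes 1 was lower by unadjusted p (6.67%, against 6.58% of all tested genes). This was Scp2, a lipid carrier and thiolase, at 84.9 and 83.0 FPKM in control against 71.8 and 65.7 in knockout (limma adjusted p = 0.154). The log2 fold change of Scp2 was -0.29, and that of Abcd3, a peroxisomal acyl-CoA carrier, was -0.16.

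Of 29 tested glycerolipid assembly genes, 4 higher (13.8%, against 7.13% of all tested genes) and 0 lower ones had an unadjusted p under 0.05. Lpcat4, Dgat1 and Pcyt2, an acyltransferase, the enzyme that closes triglycerides and the regulatory enzyme of phosphatidylethanolamine synthesis, were at 0.30, 0.33 and 0.21 on the log2 scale (limma adjusted p 0.154, 0.254 and 0.265). Agpat4, another acyltransferase, was at -0.08. The authors' deposited table calls 0 of these 29 higher and 1 lower, and of the peroxisomal genes 0 higher and 2 lower. Of its own tested genes it calls 1.74% higher and 4.04% lower. The dehydratases and other partners of elongation (6 tested), the mitochondrial fatty acid synthesis genes (7 tested) and the other synthetases and thioesterases (9 tested) had 0 genes at an unadjusted p under 0.05. In the first, Hacd3, Hacd2 and the fatty acid hydroxylase Fa2h had log2 fold changes of -0.04, -0.19 and 0.03. In the second, Ndufab1, Mlycd and Cbr4 had 0.02, 0.15 and -0.22, and in the last, Ppt1, Ppt2, Acot1 and Acsf2 had -0.04, 0.03, 0.20 and -0.22.

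**Figure D4:**
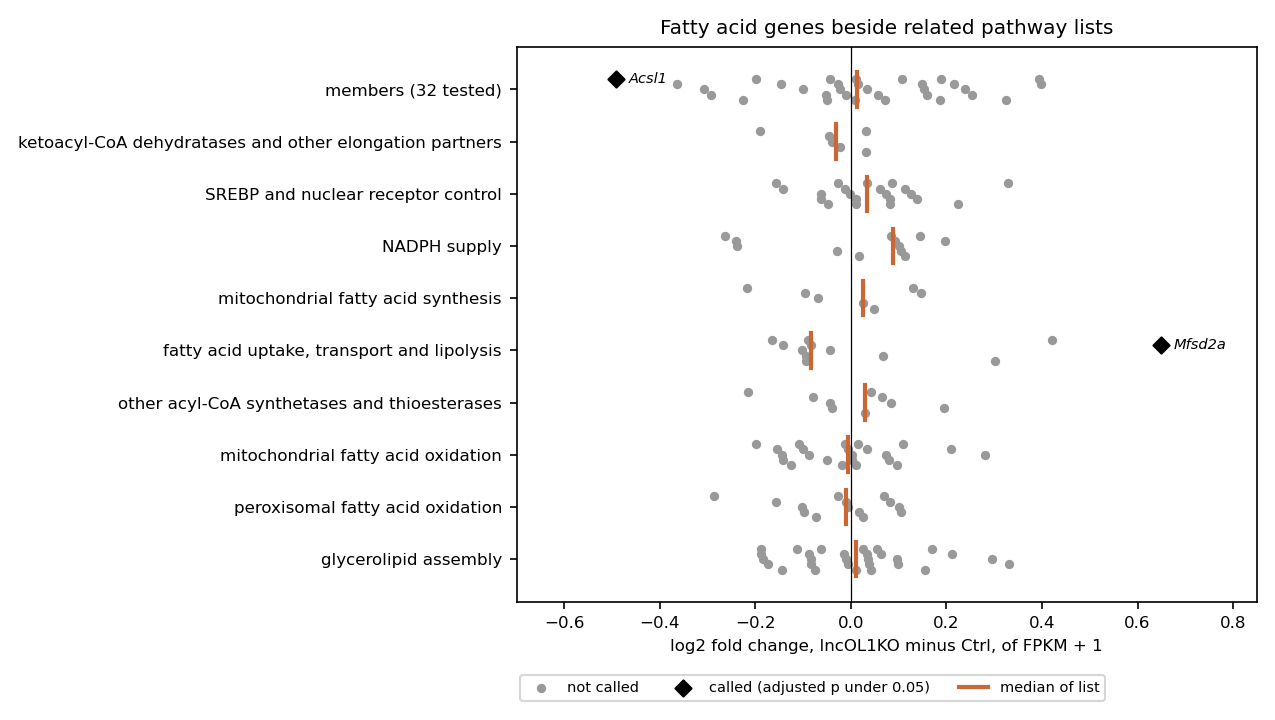
Log2 fold change of FPKM + 1 (lncOL1KO minus Ctrl) of each tested gene in the fatty acid set and in 9 related lists, with 1 point per gene drawn, black diamonds for called genes and a vertical bar for the median of all tested genes of a list. Calls lie at Acsl1 (-0.49) in the fatty acid set and at Mfsd2a (0.65) in the uptake list.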

How the data were processed

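RNA of 2 control and 2 knockout samples was made into libraries with the TruSeq kit of Illumina, per the labels' protocols. CASAVA, TopHat, Cufflinks, Cuffdiff and the build mm10 are listed, with no versions or options, per the submitters' processing notes. The authors deposited 1 table of gene-level FPKM per sample and 1 Cuffdiff table with pooled FPKM, log2 fold changes, a test score, p-values and q-values, per the file headers. The latter is quoted as the authors' and was not combined with values computed here.

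For 258 symbols several lines were summed, and 9 symbols were dropped for a status that was not OK. Genes averaging 1 FPKM or more (11361) entered the test. Their log2(FPKM + 1) values went into limma (version 3.58.1, under R 4.3.3), as knockout minus control with no covariate and a trended prior (2 residual and 4.6 prior degrees of freedom), with Benjamini-Hochberg adjustment over all genes tested. Fold changes on this scale understate those of low genes. The fit was tested on simulated data. Depth is unknown in absolute terms, and summed FPKM was 373484 to 383128.

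All 36 members are described, and from each related list up to 2 genes of highest mean and up to 2 of smallest p are named. The Hacd genes, Gpat3 and Gpat4 carry older symbols in the files and were matched through RefSeq synonyms. Some genes that this rule takes are not reported here and are not drawn in the plot of lists, though counts and medians include them. The members and lists were chosen with earlier results of these data known. Alternatives were 2 other pseudocounts, 2 other filters, 2 scalings, 2 other forms of eBayes, a replicate block and leaving out each library. RefSeq promoter windows are from GRCm38.p6, and exon overlaps are from GENCODE M21 on the same assembly.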

Additional observations from a re-analysis of the deposited data

How the results depend on the processing

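Across 13 alternatives (for Elovl2, Fads3, Fabp3 and Thrsp, the minimum of 5 FPKM gave no value), 22 of the 32 tested members kept the sign of their log2 fold change and 10 changed it, each of them when a library was left out and with values near 0. With 1 library left out, these ranged from -0.18 to 0.077 for Srebf1, -0.030 to 0.0094 for Scd2, -0.080 to 0.10 for Elovl1, -0.011 to 0.12 for Elovl5, -0.025 to 0.043 for Fads2, -0.0085 to 0.036 for Tecr, -0.12 to 0.036 for Acsl6, -0.13 to 0.082 for Acsbg1, -0.057 to 0.0040 for Acot7 and -0.023 to 0.090 for Fabp5. The number of members called higher went from 0 to 1 with a pseudocount of 0.1 or 0.01, with a minimum of 5 FPKM, with quantile normalization and with rescaling to a common sum (1 under each, Acss2), and to 2 with a robust prior and with a replicate block (Acss2 and Acsl5). The number called lower went from 1 to 0 with no filter, with eBayes without trend (Acsl1 adjusted p = 0.0626) and, by leaving out any 1 library, to 0 in each case, where fewer samples remain. Over all genes, 60 higher and 89 lower calls became 105 and 135 with a pseudocount of 0.01, 1 and 3 with no filter, 155 and 200 with a robust prior, 158 and 183 with the replicate block, and 11 to 16 and 5 to 26 with a library left out. The replicate numbers were not taken to pair the samples: deviations of the samples numbered 1 from their group means correlated at -0.052 across genes, which are not independent. Leaving out a library leaves a group with 1 sample that is assumed to vary like the other group. Apart from leaving out libraries and lifting the filter, the cause of these shifts was not tested.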

Other observations

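The authors' deposited table and the values per library do not share a zero point: over 11119 genes tested in both, its log2 fold changes were lower by a median of 0.042, given as -0.042 for the authors' value minus the limma value, and their own median was -0.037. Scd3 is listed at 0.792 and 0.825 FPKM for control and knockout in the authors' deposited table, and at 0.0524 to 0.126 in the 4 tables per library.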
